A study of Homo sapiens with 4 samples.

Results

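The dual-specificity MAP kinase phosphatases are a family of 10 genes (DUSP1, DUSP2, DUSP4, DUSP5, DUSP6, DUSP7, DUSP8, DUSP9, DUSP10 and DUSP16), and all 10 were found by symbol among the 57773 gene IDs of the deposited tables. All 10 were also among the 16090 genes with enough counts to test. They were measured by sequencing polyA RNA of MIA-PaCa2 cells, an established line from a human pancreatic tumour. The resistant group was 2 cell populations kept for 2 months under rising doses of AMG510 (sotorasib), a targeted anticancer drug, until they tolerated 5 µM. The untreated group was 2 populations of the same line with no drug. Both groups grew in the same serum-containing medium, and each population gave 1 library. The labels do not say whether drug was present at harvest, whether each resistant population was a clone, or how long the untreated populations were kept. For resistant replicate 2 the treatment is tagged AMG511, whereas the title and the design name AMG510, which was used. With 1 line and 2 libraries a group, the p-values below measure only the spread between these libraries.

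MAP kinases (ERK, JNK and p38) are switched on when a MAP kinase kinase phosphorylates a threonine and a nearby tyrosine in their activation loop. The dual-specificity phosphatases remove both phosphates, and each docks to its own choice of kinases. By location and target they form 3 classes, which are the inducible nuclear enzymes (DUSP1, DUSP2, DUSP4 and DUSP5), the cytoplasmic enzymes with a preference for ERK (DUSP6, DUSP7 and DUSP9), and the enzymes that act on JNK and p38 (DUSP8, DUSP10 and DUSP16). Several of these genes are themselves induced by ERK, so they form a negative feedback loop, and in tumours driven by ERK signalling their mRNA is often read as a sign of pathway output.

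In the resistant populations the family changed in composition, with members moving in both directions. DUSP5, DUSP8 and DUSP10 were called higher, DUSP4, DUSP6 and DUSP7 were called lower, and DUSP1, DUSP2, DUSP9 and DUSP16 were not called (edgeR's quasi-likelihood F-test, adjusted p below 0.05 by Benjamini-Hochberg over all tested genes). That is 6 of 10 members called, where 34% of all tested genes were called. Of all tested genes 16.6% were called higher and 17.4% lower, against 3 of 10 members each way. Resistant and untreated values were apart for 8 members, 4 higher and 4 lower, and such a separation was seen for 70.9% of all tested genes. The median log2 fold change (resistant over untreated, here and throughout) was −0.09 over the 10 members and −0.01 over all tested genes. DUSP10 passed the filter on low counts only through the resistant libraries and DUSP6 only through the untreated ones, so both had to differ. Of the 8 members with at least 10 counts in every library, 2 were called higher and 2 lower.

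**Figure D1:**
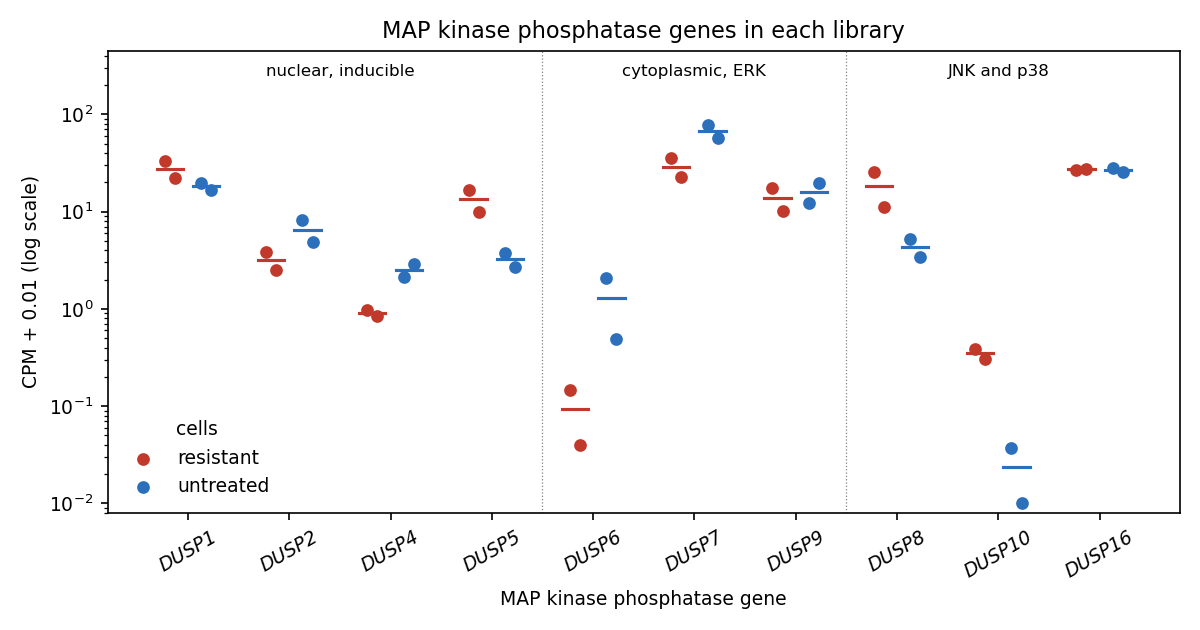
Level of each phosphatase gene in each library, in CPM (counts scaled to the depth of the library) with 0.01 added, on a log axis. Each dot is 1 library, red for resistant and blue for untreated, and the bar is the mean of the 2 libraries of a group; DUSP5, DUSP8 and DUSP10 sit higher in both resistant libraries, DUSP4, DUSP6 and DUSP7 lower, and the dots of DUSP9 and DUSP16 overlap.

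Levels of different genes were compared as CPM per kilobase of merged exon length. In resistant cells DUSP1 was the most abundant member, at 13.7 ± 3.84 CPM per kb (SD, n = 2, here and throughout), and its values lay above those of every other member. It was followed by DUSP7, DUSP5, DUSP9, DUSP16 and DUSP8, whose means lay between 5.13 and 3.97 CPM per kb, and no neighbours in that order were apart. DUSP2 came next at 1.63 CPM per kb, and DUSP4, DUSP10 and DUSP6 stood last at 0.124, 0.116 and 0.0181 CPM per kb. In untreated cells DUSP7 led at 11.9 ± 2.41 CPM per kb, followed by DUSP1 at 9.02 ± 1.08 CPM per kb, and each was apart from the next. DUSP9 and DUSP16 followed at 5.74 and 4.69 CPM per kb with overlapping values. Below them stood DUSP2 at 3.36, DUSP5 at 1.23, DUSP8 at 0.939, DUSP4 at 0.344, DUSP6 at 0.274 and DUSP10 at 0.00465 CPM per kb. Among these, DUSP5 was not apart from DUSP8, nor DUSP4 from DUSP6.

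The summed level of the 10 members was 47.8 and 31.2 CPM per kb in the resistant libraries, against 40.2 and 34.8 CPM per kb in the untreated ones, so the groups overlapped. The make-up of that sum differed. The nuclear enzymes made up 52.02% and 51.8% of it in resistant libraries, against 39.1% and 35.1% in untreated libraries. The cytoplasmic ERK enzymes made up 26.3% and 24.8% in resistant libraries, against 45.9% and 49.9% in untreated libraries. The JNK and p38 enzymes made up 21.7% and 23.5% in resistant libraries, against 14.99% and 15.06% in untreated libraries. For each class the libraries of a group lay closer to each other than to those of the other group. DUSP7 alone accounted for 13.01% and 12.9% in resistant libraries and for 33.8% and 29.3% in untreated ones, and DUSP5 for 13.4% and 12.1% in resistant libraries and 3.58% and 2.94% in untreated ones. DUSP1, which was not called, accounted for 34.2% and 35.1% in resistant libraries and 24.3% and 23.7% in untreated ones. Each share depends on the others, as all are parts of the same sum. With the longest protein-coding transcript as the length, an alternative added after the data were seen, the cytoplasmic share was 32.9% and 31.2% in resistant libraries, against 55.4% and 58.01% in untreated libraries.

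The order of DUSP7 and DUSP1 was turned round, and the levels of DUSP5 and DUSP8 came closer to that of DUSP7. The ratio of DUSP7 to DUSP1 per kb was 0.380 and 0.368 in resistant libraries, against 1.39 and 1.23 in untreated libraries, and with the transcript length it was 0.643 and 0.622 in resistant libraries, against 2.35 and 2.09 in untreated libraries. The ratio of DUSP5 to DUSP7 was 1.03 and 0.936 in resistant libraries, against 0.106 and 0.1002 in untreated libraries. The ratio of DUSP8 to DUSP7 was 0.886 and 0.604 in resistant libraries, against 0.0836 and 0.0727 in untreated libraries. In bulk RNA a change in every cell and a change in the number of cells that express a gene cannot be told apart.

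**Figure D2:**
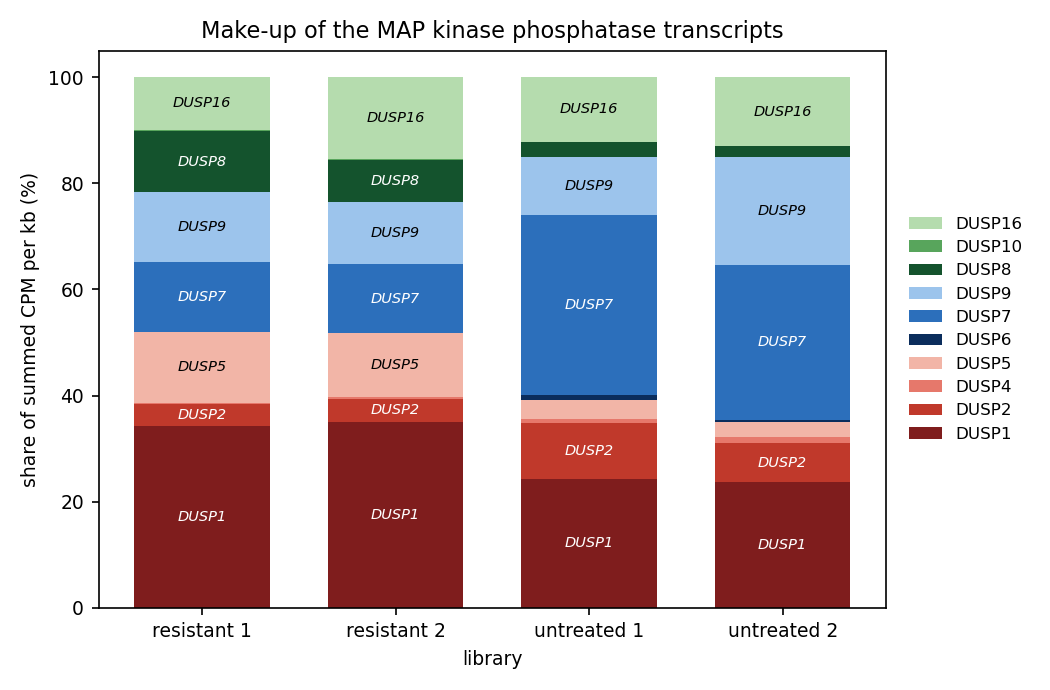
Share of each phosphatase gene in the summed CPM per kb of the 10 genes, in percent, 1 bar per library with the resistant libraries on the left. Reds are the nuclear enzymes, blues the cytoplasmic ERK enzymes and greens the JNK and p38 enzymes; the blue part spans 26.3% and 24.8% in the resistant libraries, against 45.9% and 49.9% in the untreated ones, mostly through DUSP7.

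Promoters are shown for DUSP1 and DUSP7, which led the order in resistant and in untreated cells, for DUSP8, the more abundant of the JNK and p38 enzymes that were called, and for DUSP6, the feedback phosphatase of ERK. Each window is the 250 bases before the gene start in RefSeq's table (assembly GRCh38.p14). The table matched 8 of the 10 members, all except DUSP4 and DUSP5. All 4 windows lie on the minus strand and are written 5′ to 3′ in the direction of the gene. They are chr5:172771196-172771445 for DUSP1, chr11:1572272-1572521 for DUSP8, chr3:52056572-52056821 for DUSP7 and chr12:89352502-89352751 for DUSP6. Capitals mark the cyclic AMP response element (CRE) in its full form, TGACGTCA.
DUSP1: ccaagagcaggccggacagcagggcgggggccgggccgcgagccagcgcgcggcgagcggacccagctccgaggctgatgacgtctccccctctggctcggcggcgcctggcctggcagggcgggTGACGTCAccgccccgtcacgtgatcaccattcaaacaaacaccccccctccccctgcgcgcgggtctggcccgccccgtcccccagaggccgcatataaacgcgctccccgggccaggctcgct
DUSP8: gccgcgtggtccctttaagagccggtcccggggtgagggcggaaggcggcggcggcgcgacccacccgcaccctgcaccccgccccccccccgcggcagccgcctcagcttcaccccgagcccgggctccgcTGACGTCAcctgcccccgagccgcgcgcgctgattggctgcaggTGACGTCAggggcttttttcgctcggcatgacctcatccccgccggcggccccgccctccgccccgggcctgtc
DUSP7: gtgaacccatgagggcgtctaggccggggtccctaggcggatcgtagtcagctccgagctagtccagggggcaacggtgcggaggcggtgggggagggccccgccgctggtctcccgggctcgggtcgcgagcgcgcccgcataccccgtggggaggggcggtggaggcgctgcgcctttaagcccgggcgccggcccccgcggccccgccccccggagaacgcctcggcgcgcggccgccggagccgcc
DUSP6: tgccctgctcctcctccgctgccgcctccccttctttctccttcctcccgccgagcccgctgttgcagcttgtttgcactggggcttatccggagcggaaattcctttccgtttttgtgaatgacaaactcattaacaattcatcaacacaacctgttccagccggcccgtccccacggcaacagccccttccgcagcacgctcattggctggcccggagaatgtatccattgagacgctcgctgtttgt
The DUSP1 window holds 1 such element, 125 bases before the start. The DUSP8 window holds 2, at 118 and 74 bases before the start. The windows of DUSP7 and DUSP6 hold none, nor do those of the other matched members. Over 35116 promoter windows of the same length, 1.65% hold the element on either strand, a palindrome that reads the same on both. Searched in the same way on both strands, the AP-1 motif TGANTCA, the ETS motif CCGGAA and the CArG box of serum response factor were in no window of a matched member, and they were in 6.57%, 14.5% and 1.16% of all windows. These are matches of letters, and they say nothing about binding in these cells.

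Among the inducible nuclear enzymes, DUSP5 rose, DUSP4 fell, and DUSP1 and DUSP2 were not called, and the median log2 fold change of the 4 was −0.22. DUSP5 (ENSG00000138166, chromosome 10), a nuclear phosphatase selective for ERK that also anchors it in the nucleus, had 16.8 and 9.86 CPM in the resistant libraries, against 3.76 and 2.67 CPM in the untreated libraries. Both resistant values lay well above both untreated ones. Its mean was 13.3 ± 4.88 CPM in resistant cells and 3.22 ± 0.773 CPM in untreated cells, which is 4.13-fold higher in resistant cells (log2 fold change 2.05, SE 0.34, adjusted p = 0.00155). It was called in all 8 other fits with 4 libraries and in all 4 fits that left out 1 library, with a log2 fold change between 1.63 and 2.38 without 1 library.

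DUSP4 (ENSG00000120875, chromosome 8), a nuclear enzyme for ERK and JNK that ERK signalling induces, went the other way. It had 28 counts in each resistant library, at 0.966 and 0.829 CPM, against 79 and 107 counts in the untreated libraries, at 2.14 and 2.86 CPM. The groups did not overlap, and the gene was low in all libraries, at the 19.8th percentile of tested genes by mean level. Its mean was 0.898 ± 0.0969 CPM in resistant cells and 2.50 ± 0.509 CPM in untreated cells, 2.78-fold lower in resistant cells (log2 fold change −1.48, SE 0.45, adjusted p = 0.0272). It was called in all 8 other fits with 4 libraries. It was not called without any 1 library, with adjusted p-values of 0.05001 and 0.0978 when resistant replicate 1 or 2 was left out and of 0.0542 and 0.113 when untreated replicate 1 or 2 was. The ratio of DUSP5 to DUSP4 per kb was 48.2 and 33.0 in resistant libraries, against 4.88 and 2.59 in untreated libraries.

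DUSP1 (ENSG00000120129, chromosome 5), an immediate early gene whose enzyme acts on p38 and JNK as well as ERK, had 33.1 and 22.1 CPM in resistant libraries, against 19.8 and 16.7 CPM in untreated libraries. The groups did not overlap, but the gap between them was smaller than the gap within the resistant pair. At 0.60 in log2 (SE 0.23, adjusted p = 0.0687) it did not pass the threshold. Without resistant replicate 2 it was called, at 0.86 (adjusted p = 0.00920), and among the 8 other fits with 4 libraries only the one with no filter on low counts called it (adjusted p = 0.0283).

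DUSP2 (ENSG00000158050, chromosome 2), a nuclear phosphatase first known from activated lymphocytes, had 3.80 and 2.52 CPM in resistant libraries, against 8.10 and 4.89 CPM in untreated libraries. Both resistant values lay below both untreated ones. It stood just outside the threshold, at −1.04 in log2 (SE 0.37, adjusted p = 0.0523). Of the 8 other fits with 4 libraries 5 called it, with adjusted p-values down to 0.0177, and among them were the fit with a replicate block (0.0381) and DESeq2 (0.0387). Its log2 fold change was larger in size without resistant replicate 1 (−1.35) or untreated replicate 2 (−1.37). It was smaller in size without resistant replicate 2 (−0.78) or untreated replicate 1 (−0.61).

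**Figure D3:**
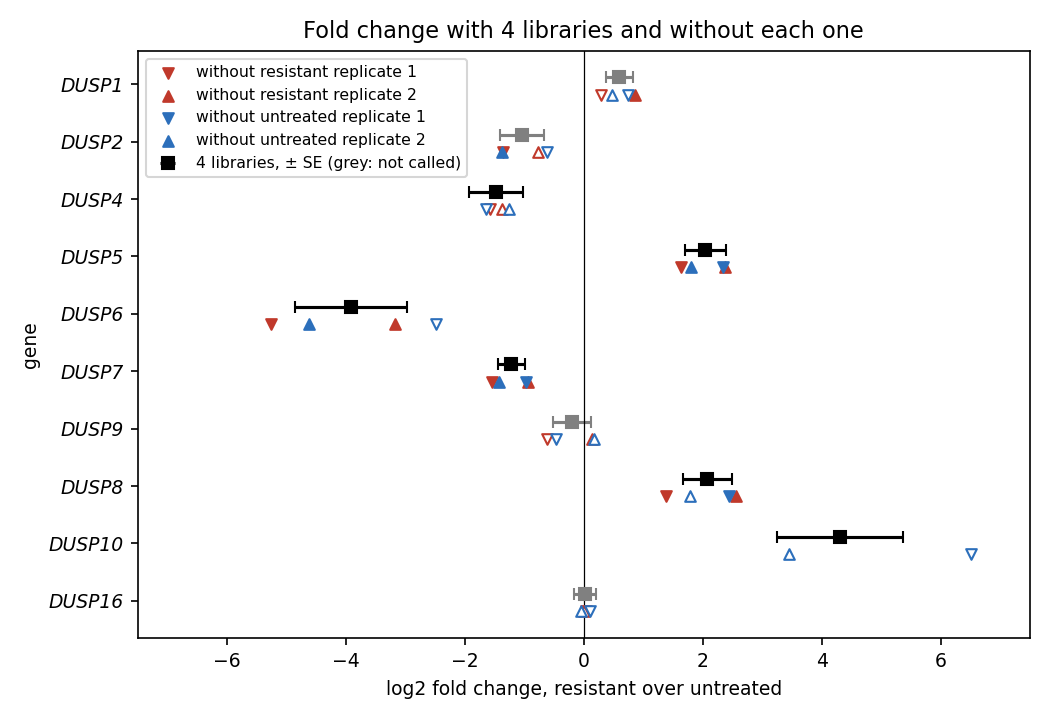
Log2 fold change (resistant over untreated) of each phosphatase gene with all 4 libraries (squares, with the SE as a bar, black where called and grey where not) and without each library in turn (triangles, filled where called). DUSP5 and DUSP7 keep filled triangles throughout, none of the 4 triangles of DUSP4 is filled, and DUSP10 has only the 2 fits in which it could be tested.

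Of the cytoplasmic ERK enzymes, DUSP7 fell and DUSP9 was not called. DUSP6 was called lower too, but it passed the filter only through the untreated libraries. DUSP7 (ENSG00000164086, chromosome 3), which is closely related to DUSP6 but less known as a feedback gene, had 35.2 and 22.7 CPM in resistant libraries, against 76.8 and 57.6 CPM in untreated libraries. The groups were well apart, and the gene carried 768 counts or more in each library. Its mean was 28.9 ± 8.78 CPM in resistant cells and 67.2 ± 13.6 CPM in untreated cells, 2.32-fold lower in resistant cells (log2 fold change −1.22, SE 0.23, adjusted p = 0.00408). It was called in all 8 other fits with 4 libraries and in all 4 without 1 library, where the log2 fold change lay between −1.55 and −0.94.

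DUSP6 (ENSG00000139318, chromosome 12), the best known feedback phosphatase of ERK, was scarce in this line. It had 4 and 1 counts in the resistant libraries, at 0.138 and 0.0296 CPM, against 76 and 18 counts in the untreated libraries, at 2.06 and 0.481 CPM. The groups did not overlap, but the untreated libraries differed 4.28-fold from each other. Over both libraries of a group, 5 counts in resistant cells stood against 94 in untreated cells, a ratio of untreated to resistant of 15.9 with an exact 95% interval of 6.56 to 49.997, which covers counting error only. In the fit the log2 fold change was −3.91 (SE 0.94, adjusted p = 0.0112), and it was called in all 7 other fits with 4 libraries that tested it. Without untreated replicate 1 it was not called, at −2.49 (adjusted p = 0.175), and leaving out the other libraries gave −5.26 (resistant replicate 1), −3.17 (resistant replicate 2) and −4.62 (untreated replicate 2). An annotated antisense gene, AC024909.2, shares 1875 exon bases with DUSP6 on the opposite strand and was not analysed here. The strand setting of the counting is not given in the sources used here, so the value of DUSP6 is uncertain to that extent.

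DUSP9 (ENSG00000130829, X chromosome), a cytoplasmic ERK phosphatase best known from the placenta, had 17.6 and 10.2 CPM in resistant libraries, against 12.3 and 19.6 CPM in untreated libraries. The groups overlapped, with the highest and the second lowest value in the untreated pair. Its log2 fold change was −0.20 (SE 0.31, adjusted p = 0.662). Its sign depended on 1 library, at 0.14 without resistant replicate 2 and 0.17 without untreated replicate 2, so no difference was detectable at this spread.

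Of the JNK and p38 enzymes, DUSP8 rose and DUSP16 was not called. DUSP10 was called higher too, but it passed the filter only through the resistant libraries. DUSP8 (ENSG00000184545, chromosome 11), a phosphatase of JNK and p38 best known from brain and heart, had 25.5 and 11.2 CPM in resistant libraries, against 5.25 and 3.42 CPM in untreated libraries. Both resistant values lay above both untreated ones, and resistant replicate 1 was 2.27-fold above resistant replicate 2. Its mean was 18.3 ± 10.1 CPM in resistant cells and 4.34 ± 1.297 CPM in untreated cells, 4.22-fold higher in resistant cells (log2 fold change 2.08, SE 0.41, adjusted p = 0.00599). All 8 other fits with 4 libraries called it. Without untreated replicate 2 it was not called (1.79, adjusted p = 0.0626), and without resistant replicate 1 it was called at a log2 fold change of 1.38.

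DUSP10 (ENSG00000143507, chromosome 1), a phosphatase of JNK and p38 known for restraining inflammatory signals, had the lowest mean over the 4 libraries, although DUSP6 was lower in the resistant ones. It had 11 and 10 counts in the resistant libraries, at 0.380 and 0.296 CPM, against 1 and 0 counts in the untreated libraries. Over both libraries of a group, 21 counts in resistant cells stood against 1 in untreated cells, a ratio of 24.9 with an exact 95% interval of 4.002 to 1029. It was called in the fit (log2 fold change 4.31, SE 1.06, adjusted p = 0.0108), and in 6 of the 7 other fits with 4 libraries that tested it. DESeq2 did not call it (adjusted p = 0.0856). It was not called without untreated replicate 1 (6.52, adjusted p = 0.0623) or untreated replicate 2 (3.46, adjusted p = 0.116), and it had too few counts to test without either resistant library. Of all tested genes, 0.0311% had a mean level as low as this or lower.

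DUSP16 (ENSG00000111266, chromosome 12), a phosphatase that favours JNK, was the steadiest member. It had 27.0 and 27.4 CPM in resistant libraries, against 27.9 and 25.8 CPM in untreated libraries. The groups overlapped, and the log2 fold change was 0.02 (SE 0.18, adjusted p = 0.947), with −0.05 to 0.10 without 1 library. The ratio of DUSP16 to DUSP8 per kb was 0.857 and 1.97 in resistant libraries, against 4.29 and 6.07 in untreated libraries, so that DUSP8 passed DUSP16 only in resistant replicate 1.

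**Figure D4:**
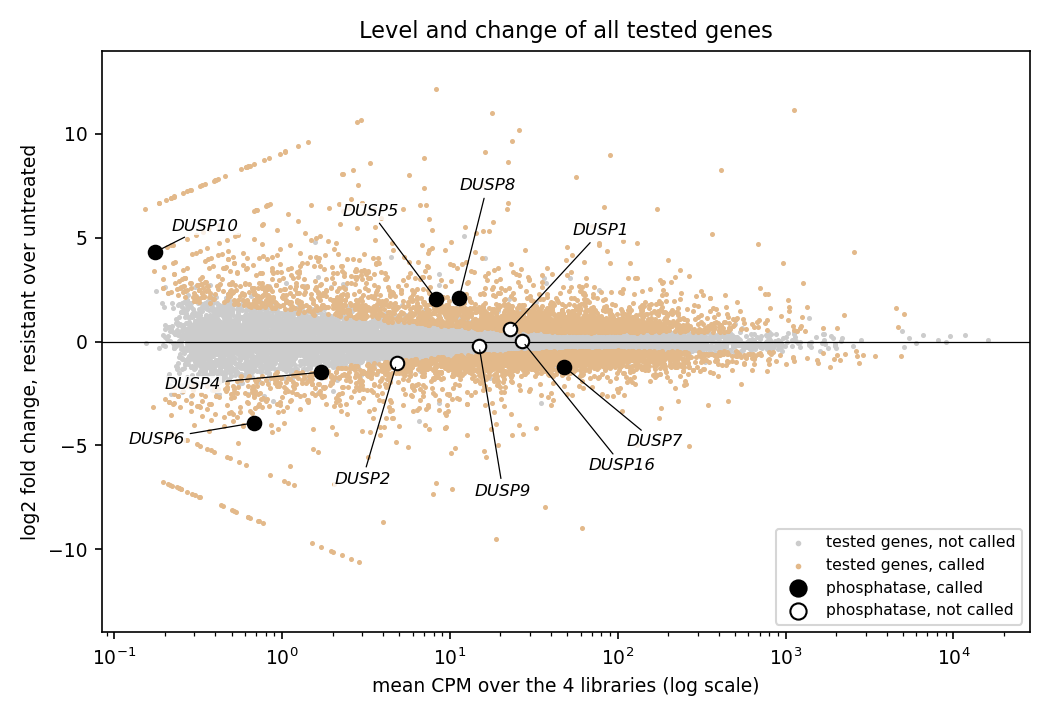
Mean level over the 4 libraries (CPM, log axis) against the log2 fold change (resistant over untreated) of all 16090 tested genes, called genes in orange and others in grey. The 10 phosphatase genes are named, filled where called; DUSP10 and DUSP6 lie at the low end with log2 fold changes of 4.31 and −3.91, and DUSP7 is the most abundant of the called members.

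The populations of a group also differed from each other. With 0.1 CPM added, 5 of 10 members (DUSP5, DUSP6, DUSP7, DUSP8 and DUSP9) differed by more than 1.5-fold between the resistant libraries, and 4 of 10 (DUSP2, DUSP6, DUSP8 and DUSP9) between the untreated libraries. Over all tested genes that share was 17.8% in the resistant pair and 17.0% in the untreated pair. Replicate 1 had the higher CPM for 9 of 10 members in the resistant pair and for 8 of 10 in the untreated pair. The same count was not made over all tested genes, so whether this is unusual for a gene set is not known. In the resistant pair the ratios of replicate 1 to replicate 2 were 1.70 for DUSP5, 1.55 for DUSP7 and 1.72 for DUSP9, and 0.989 for DUSP16. With 1 library each there is no test of these differences.

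Each member was set beside its 20 nearest tested protein-coding genes in the order of the GENCODE 29 annotation. DUSP7 had a lower log2 fold change than all 20 of its neighbours, whose median was −0.26. DUSP6 too lay below all 20 of its neighbours, whose median was −0.22. It passed the filter only through the untreated libraries, so it had to differ. DUSP5 and DUSP8 were each passed by 1 of 20 neighbours, with medians of −0.41 around DUSP5 and 0.26 around DUSP8. Around DUSP8, 4 of 20 neighbours were called higher and 0 lower, beside 16.6% and 17.4% of all tested genes. The median over the tested protein-coding genes of chromosome 11, which holds DUSP8, was 0.42. DUSP4 was lower than 17 of 20 neighbours, whose median was −0.31, with 6 of them called lower. DUSP10 was passed by 2 of 20 neighbours, but it passed the filter only through the resistant libraries and so had to differ. Of the 20 around DUSP10, 7 were called higher and 3 lower. DUSP1, which was not called, was passed by 1 of 20 neighbours, whose median was −0.48. Of the 20 around DUSP1, 2 were called higher and 8 lower.

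Pseudogene copies of 2 members could share reads with them. DUSP5P1, 83.6% identical to DUSP5 over 1142 aligned bases, had 66 and 72 counts in resistant libraries, against 100 and 119 in untreated libraries (log2 fold change −0.42, adjusted p = 0.425), and DUSP5P2 had 0 in all 4. The 3 copies of DUSP8 in the files are 90.0% to 90.7% identical to it over 1337 to 1421 bases. DUSP8P5 had 62 and 91 counts in resistant libraries, against 54 and 74 in untreated libraries (0.49, adjusted p = 0.391). The copy ENSG00000215097 had 14.47 and 24.36 expected counts in resistant libraries, against 1.84 and 7.6 in untreated libraries (2.13, adjusted p = 0.0466). This copy passed the filter only through the resistant libraries, so it had to differ. The other, DUSP8P1, had 8.48 and 6.64 in resistant libraries, against 0 and 8.78 in untreated libraries, too few to test. The expected counts of all 10 members were whole numbers in every library. KRTAP5-AS1, an antisense gene that overlaps DUSP8 without sharing exon bases, had 93 and 43 counts in resistant libraries, against 7 and 9 in untreated libraries. Its part in the value of DUSP8 was not tested.

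Of 9 tested MAP kinases, 0 were called higher and 1 lower, with a median log2 fold change of 0.02. MAPK9, which encodes JNK2, fell to 53.5 ± 0.718 CPM in resistant cells, against 91.2 ± 3.75 CPM in untreated cells (−0.77, SE 0.15, adjusted p = 0.00356). Of 7 tested MAP kinase kinases, 0 were called higher and 2 lower, beside 16.6% and 17.4% of all tested genes. Both are activators of p38. MAP2K3 fell to 23.7 ± 8.35 CPM in resistant cells, against 57.5 ± 12.1 CPM in untreated cells (−1.28, SE 0.26, adjusted p = 0.00599). MAP2K6 was scarce, with 6 and 17 counts in resistant libraries against 29 and 101 in untreated libraries, and resistant replicate 1 was below the filter's 10 counts. It stood at 0.355 ± 0.210 CPM in resistant cells and 1.74 ± 1.35 CPM in untreated cells (−2.26, SE 0.71, adjusted p = 0.0325), but limma-voom did not call it (adjusted p = 0.0572) and the filter of 1 CPM left it untested. The call was also lost when resistant replicate 1 (−1.76, adjusted p = 0.0572) or untreated replicate 2 (−1.13, adjusted p = 0.351) was left out. MAP2K2, an activator of ERK, was not called, at 640.4 ± 323 CPM in resistant cells and 357.3 ± 25.6 CPM in untreated cells (0.84, adjusted p = 0.1001). It was called with no filter (adjusted p = 1.38e-04), with the replicate block (0.0448) and by DESeq2 (0.00983). Its value rested on resistant replicate 1, at 0.22 without it and 1.28, called, without resistant replicate 2.

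Of 11 tested genes listed as atypical dual-specificity phosphatases, most of which lack the kinase-docking domain of the family, 3 were called higher and 1 lower. Their median was 0.37, and 4 of 11 were called beside 34% of all tested genes. DUSP3, an atypical enzyme for ERK and JNK, rose to 176 ± 23.3 CPM in resistant cells, against 98.4 ± 11.7 CPM in untreated cells (0.84, SE 0.17, adjusted p = 0.00453). DUSP12 was called lower, at 13.9 ± 1.85 CPM in resistant cells and 23.3 ± 1.52 CPM in untreated cells (−0.74, adjusted p = 0.0197), but leaving out resistant replicate 1 or untreated replicate 1 ended the call (adjusted p = 0.115 and 0.125). DUSP18 (0.94, adjusted p = 0.0492) and DUSP22 (0.62, adjusted p = 0.0288) were the others called higher, both named after their values were seen. DUSP18 shares 1530 exon bases with SLC35E4 on the opposite strand and 164 with the pseudogene AC003072.1 on the same strand. The part of these overlaps in the value of DUSP18 was not tested. STYXL1, a catalytically dead relative, was not called at 49.6 ± 1.05 CPM in resistant cells and 38.5 ± 0.464 CPM in untreated cells (adjusted p = 0.102). Of 5 other tested MAP kinase phosphatases, 1 was called, and lower, where 17.4% of all tested genes were called lower. This was PPP2CA, the main catalytic subunit of protein phosphatase 2A, which fell to 131.8 ± 13.2 CPM in resistant cells, against 311.1 ± 57.1 CPM in untreated cells (−1.24, SE 0.18, adjusted p = 8.47e-04). Its paralog PPP2CB was not called (−0.04, adjusted p = 0.874).

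Genes that act on the phosphatase genes or respond to ERK like them were read from the same fit. Of 7 transcription factors of the ETS family, SRF and CREB type, 3 were called higher and 0 lower, beside 16.6% and 17.4% of all tested genes. ETS1, an ETS factor that ERK phosphorylates, rose to 88.9 ± 12.7 CPM in resistant cells, against 31.1 ± 2.02 CPM in untreated cells (1.52, SE 0.17, adjusted p = 1.70e-04). ELK1, the partner of SRF at immediate early genes, rose to 123 ± 11.8 CPM in resistant cells, against 73.8 ± 9.21 CPM in untreated cells (0.74, adjusted p = 0.00679). The other was ELK4 (0.72, adjusted p = 0.00764), named after its value was seen. SRF was not called (−0.16, adjusted p = 0.501), nor was CREB1, the factor named for the CRE (−0.05, adjusted p = 0.841), which was picked after its value was seen.

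All 4 tested RNA-binding proteins known to act on the stability of mRNAs such as that of DUSP1 were called, 2 each way, with a median of 0.80. The share called over all tested genes was 34%. ZFP36L1, which promotes decay, rose to 1305 ± 331.5 CPM in resistant cells, against 268 ± 10.8 CPM in untreated cells (2.28, SE 0.20, adjusted p = 3.84e-05). ZFP36, which does the same, rose to 38.01 ± 10.5 CPM in resistant cells, against 8.32 ± 0.776 CPM in untreated cells (2.19, SE 0.24, adjusted p = 1.38e-04). ELAVL1, a stabiliser, was called lower (−0.64, adjusted p = 0.0156), and it is named after its value was seen.

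Of 8 genes known to be induced by ERK, 6 were called lower and 1 higher, beside 17.4% and 16.6% of all tested genes, with a median of −1.75. ETV4, an ETS factor, fell to 2.31 ± 0.294 CPM in resistant cells, against 35.5 ± 3.25 CPM in untreated cells (−3.94, SE 0.24, adjusted p = 2.55e-06). CCND1, cyclin D1, fell to 35.8 ± 3.91 CPM in resistant cells, against 169 ± 26.3 CPM in untreated cells (−2.24, SE 0.18, adjusted p = 1.98e-05). PHLDA1 was not called (0.15, adjusted p = 0.655), and EPHA4 was the gene called higher (0.58, adjusted p = 0.0197), named after its value was seen. Of the members that ERK also induces, DUSP4 was called lower and DUSP5 higher. DUSP6, the feedback phosphatase of ERK, was called lower too, but it passed the filter only through the untreated libraries. DUSP1, an immediate early gene, was not called. CCND1 shares 497 exon bases with LTO1 and ETV4 shares 68 with DHX8, each on the opposite strand, and PPP2CA shares 312 with AC104109.3 on the same strand. Antisense genes share 553 and 779 exon bases with PHLDA1, 528 with ELAVL1 and 353 with EPHA4, and MFSD4A shares 422 with ELK4. All 7 are uncertain to that extent.

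**Figure D5:**
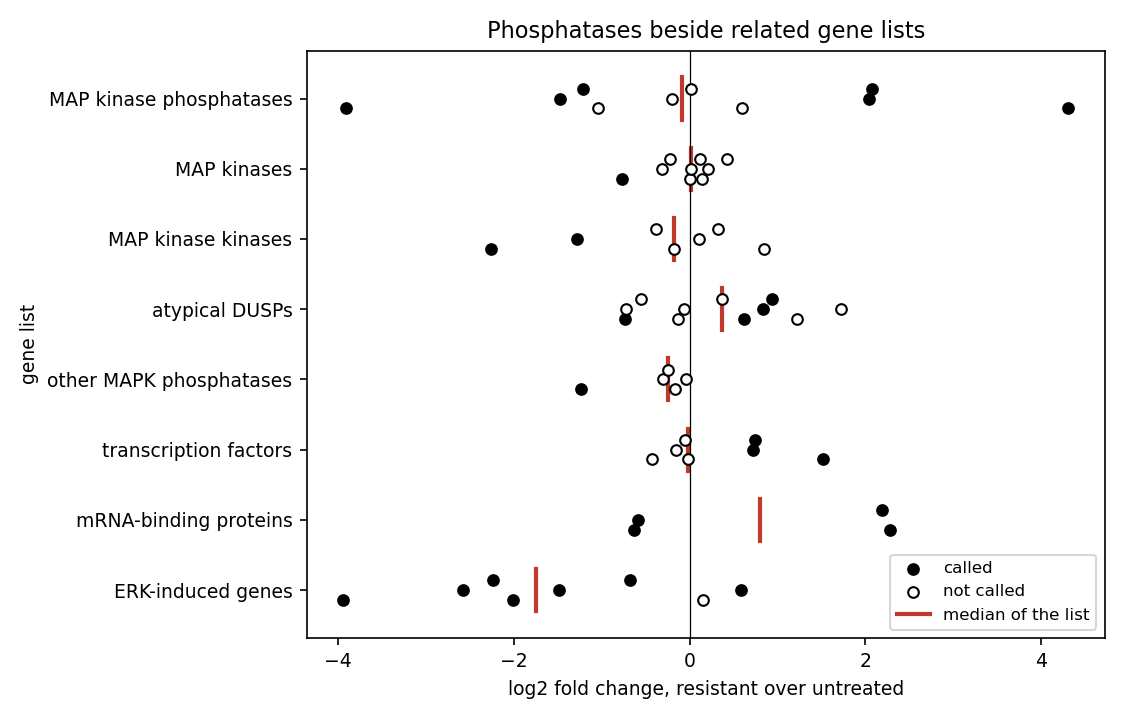
Log2 fold change (resistant over untreated) of each tested gene of the phosphatase family and of 7 related gene lists, 1 row per list, with filled dots for called genes, open dots for others and a red line at the median. The phosphatases spread from −3.91 (DUSP6) to 4.31 (DUSP10), but both of these passed the filter through only 1 group and so had to differ. The other phosphatases lie between −1.48 (DUSP4) and 2.08 (DUSP8). The MAP kinases lie close to 0 apart from MAPK9 at −0.77, and most ERK-induced genes lie to the left.

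The libraries held 30146559 and 33074965 expected counts in the resistant group and 38052558 and 35747414 in the untreated group, so that 3 counts were worth 0.0801 to 0.104 CPM. CDKN2A, which this line is known to have lost, had 0 counts in all 4. Of the epithelial markers KRT8, KRT18, KRT19, EPCAM and CDH1, the keratins KRT8 and KRT18 were called lower (−1.23 and −0.88), and CDH1 had 21 to 35 counts. Of 3 leukocyte markers, PTPRC had 2 to 5 counts and CD3E 0 or 1, and their sum, nearly all CD68, was 33.8 and 9.44 CPM in resistant libraries against 10.4 and 13.8 CPM in untreated libraries. Of 3 fibroblast markers, DCN had 2 counts in each library and LUM 1 to 7, while PDGFRB had 147 and 73 counts in resistant libraries against 2 and 7 in untreated libraries, for a sum of 5.24 and 2.28 CPM in resistant libraries and 0.298 and 0.267 CPM in untreated libraries. The 2 endothelial markers, CDH5 and VWF, summed to 5.83 and 0.977 CPM in resistant libraries and 8.42 and 4.22 CPM in untreated libraries. The part of these differences in the phosphatase values was not tested.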

How the data were processed

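Each library has 1 deposited table of expected counts by gene, which the authors did not normalize, per the file headers. Per the submitters' processing notes the tools were STAR 2.7.2b and RSEM 1.3.1 and the build was GRCh37. The strand setting and annotation release are not given in the sources used here. Expected counts, 93.6% of them whole, were rounded for the tests. Groups and replicate numbers came from the sample titles.

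Genes were kept with edgeR's filterByExpr (at least 10 counts in enough libraries), scaled with TMM (factors 0.962 to 1.05) and compared with the quasi-likelihood F-test of edgeR 4.0.16 in R 4.3.3 with robust dispersions, and called at an adjusted p below 0.05. Replicates varied with a common biological coefficient of variation of 19.6%. A standard error (SE) was taken as the size of the log2 change over the square root of F. Group values are means ± SD of CPM. A ratio of few counts has an exact 95% conditional binomial interval, which covers counting error only. The other fits used RLE or upper-quartile scaling, no filter, a filter of 1 CPM in 2 libraries, a replicate block, the newer quasi-likelihood form, DESeq2 1.42.0 and limma-voom (limma 3.58.1), and each library was left out in turn, where the lone library of a group is assumed to vary like the others. The main edgeR fit alone was run on simulated data, and the outcome is not given here.

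Members and gene lists were chosen with earlier results of these data known. All members are named, and from each other list at most 2 called genes with the smallest adjusted p and the most abundant gene not called. Genes named outside this rule, the overlapping genes, copies and markers apart, are said to be. GENCODE 29, of another build, gave chromosomes, gene order, overlaps and lengths only, and promoters came from RefSeq's table for GRCh38.p14. Some genes chosen by this rule or among the markers are not reported here. A planned comparison of the protein sequences was not made.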

Additional observations from a re-analysis of the deposited data

How the results depend on the processing

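DUSP5 and DUSP7 were called in all 8 other fits with 4 libraries and in all 4 without 1 library. At a threshold of 0.01, 3 members (2 higher, DUSP5 and DUSP8, and 1 lower, DUSP7) and 2832 of all genes (1444 higher, 1388 lower) were called, against 6 members and 5463 genes at 0.05. Without 1 library the number of called members was 3 to 5 (1 to 3 higher, 1 to 3 lower), and that of all genes 2832 to 5041 (1510 to 2548 higher, 1322 to 2493 lower), and both totals were lowest without untreated replicate 1. The labels do not say that equal replicate numbers mark a shared source, and same-numbered libraries did not deviate together over all tested genes (r = −0.0236). The fit with a replicate block called 5275 genes and 7 members, DUSP2 being the added one. Signs turned round for values near 0. Without 1 library the log2 fold change was −0.62 to 0.17 for DUSP9, −0.0494 to 0.10 for DUSP16, −0.19 to 0.14 for PPP2CB, −0.33 to 0.0398 for SRF and −0.25 to 0.47 for PHLDA1. The log2 ratio of the summed level per kb, 0.0745, was −0.0917 with the longest protein-coding transcript as length and −0.27 to 0.35 without 1 library, settings added after the data were seen. The cause of these changes was not tested. Depth limits DUSP6 most, with 5 counts over the resistant libraries, and DUSP10, with 1 over the untreated ones. The filter of 1 CPM left both untested, and DUSP10 could not be tested without either resistant library.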
